A study of Mus musculus with 12 samples.

Results

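Subcutaneous white fat (sWAT) is a fat depot in which mice can form thermogenic adipocytes, and its response to cold was measured here by RNA sequencing. Libraries were taken by their labels: those from sWAT of mice held at 4 °C for 72 hours were set against those from sWAT of mice held at 30 °C for 72 hours. This gave 6 of the 12 libraries in the series, 3 at each temperature. All animals were wild-type male C57Bl/6 mice aged 8 to 12 weeks, 10 in each temperature group. The other 6 libraries are brown fat (BAT) of the same 2 temperatures and are used only to ask where sWAT differed. The labels do not say whether a library is 1 animal or a pool, so p-values measure the spread between these libraries, which may be technical.

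In cold, noradrenaline from sympathetic nerves binds β-adrenergic receptors on adipocytes and raises cyclic AMP. Cyclic AMP activates protein kinase A, which drives lipolysis and, through CREB, ATF2 and PGC-1α, transcription of thermogenic genes. White depots then gain beige adipocytes, cells with many mitochondria that carry uncoupling protein 1 (UCP1) and burn fatty acids and glucose to make heat. A temperature of 30 °C is close to thermoneutral for a mouse, so its fat is then under little adrenergic drive.

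The 2 groups of libraries differed in make-up as well as in temperature. Total counts were 33695611 to 53485998 in cold and 27117934 to 29404276 at 30 °C. Genes encoded in mitochondrial DNA took 19.7% to 33.6% of counts in cold and 0.181% to 0.307% at 30 °C, whereas the BAT libraries lay between 17.6% and 53.8%. Cytosolic ribosomal protein genes took 1.17% to 1.87% in cold and 7.19% to 8.15% at 30 °C. The rise of log2 CPM (read counts scaled to library size with TMM) for each 10 percentage points of transcript GC content was -0.468 to 0.172 in cold and 0.804 to 1.37 at 30 °C. No range overlapped between the groups, and an exact permutation test of 3 against 3 libraries cannot go below p = 0.10. Temperature and this difference in library make-up cannot be told apart in this design. The text therefore states where a correction for GC content ended a call, turned a direction or moved a log2 fold change by over 1.5 times. Smaller shifts are given for some genes only, so a value printed alone may also have moved.

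Of 23163 genes in the table, 15731 passed the filter on low counts. In the cold libraries 3950 of them (25.1%) were higher and 3784 (24.1%) lower at an adjusted p under 0.05, which is 49.2% called either way. Here and below, adjusted p comes from the quasi-likelihood test of edgeR, adjusted by Benjamini-Hochberg across every gene tested, and a log2 fold change is cold over thermoneutral, ± its standard error, from 3 libraries against 3. The fold was at least 2 for 3495 of the higher and 3209 of the lower genes. Over all genes tested the median was 0.0049 on the log2 scale, so counts within a gene group are read against 25.1% higher and 24.1% lower.

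Calls followed GC content closely. In the quintile of genes with the lowest GC content, 53.6% were called higher and 4.37% lower, and in the quintile with the highest, 5.84% were called higher and 49.8% lower. With a GC correction fitted in each library, the first quintile had 22.5% higher and 26.2% lower and the last 19.3% higher and 20.4% lower. The corrected fit called 3278 genes higher (20.8%) and 3434 lower (21.8%), or 42.7% either way, and 2553 higher and 2390 lower genes were called in both fits. The sign turned for 303 genes called higher and 107 called lower without the correction. Transcript length showed a trend of its own, from 17.2% higher in the shortest quintile to 35.2% in the longest.

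**Figure D1:**
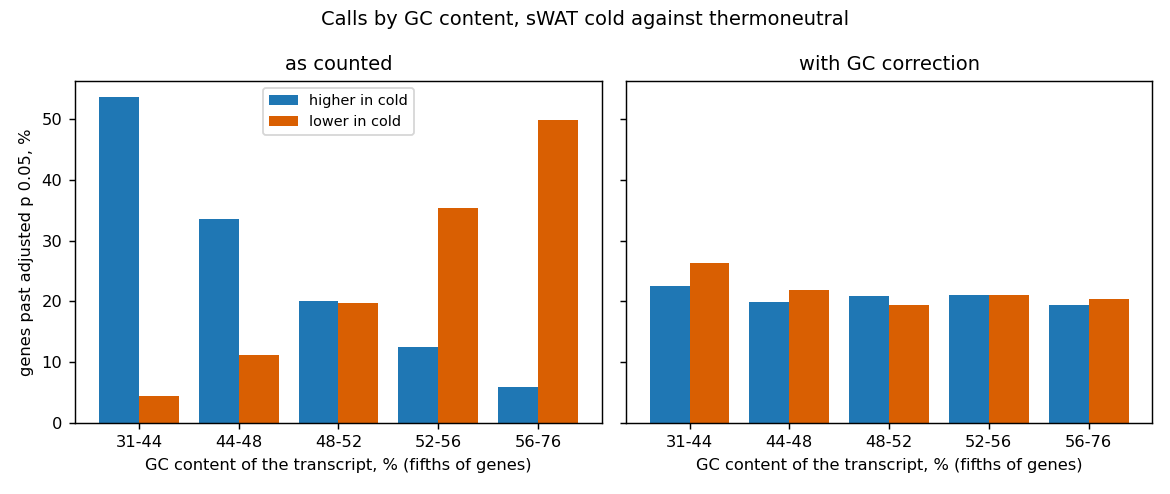
Percent of tested genes called higher or lower in cold (y axis) in each quintile of transcript GC content (x axis, in percent), as counted on the left and with the GC correction on the right. Called-higher bars fall from 53.6% to 5.84% from left to right without the correction and lie between 19.3% and 22.5% with it.

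Adipocyte markers were abundant in every library, and markers of some other cell types differed between the groups, whereas endothelial and fibroblast sums overlapped. Summed CPM of 12 adipocyte markers was 22640, 35340 and 29100 in cold (library 1, then 2, then 3, as in all values below) and 25220, 24000 and 16210 at 30 °C, so the groups overlapped. Members moved in opposite directions within this sum, with 3 called higher, 2 lower and 7 neither. Fabp4 was at 9706, 16190 and 13480 CPM in cold against 1798, 555.3 and 919, and Cfd at 3161, 6088 and 4766 against 11340, 12470 and 7380. Skeletal muscle markers (24 genes) summed to 12780, 32520 and 33570 in cold and 2983, 7787 and 203.4 at 30 °C. Every cold library was above every thermoneutral one, and thermoneutral library 3 was the lowest. B and T lymphocyte markers (18 genes) summed to 1134, 380.9 and 359.3 in cold and 1722, 1223 and 1813 at 30 °C, again without overlap. The part of these cells in the gene results below was not tested. In bulk tissue, fewer cells of a type and less RNA per cell cannot be told apart.

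**Figure D2:**
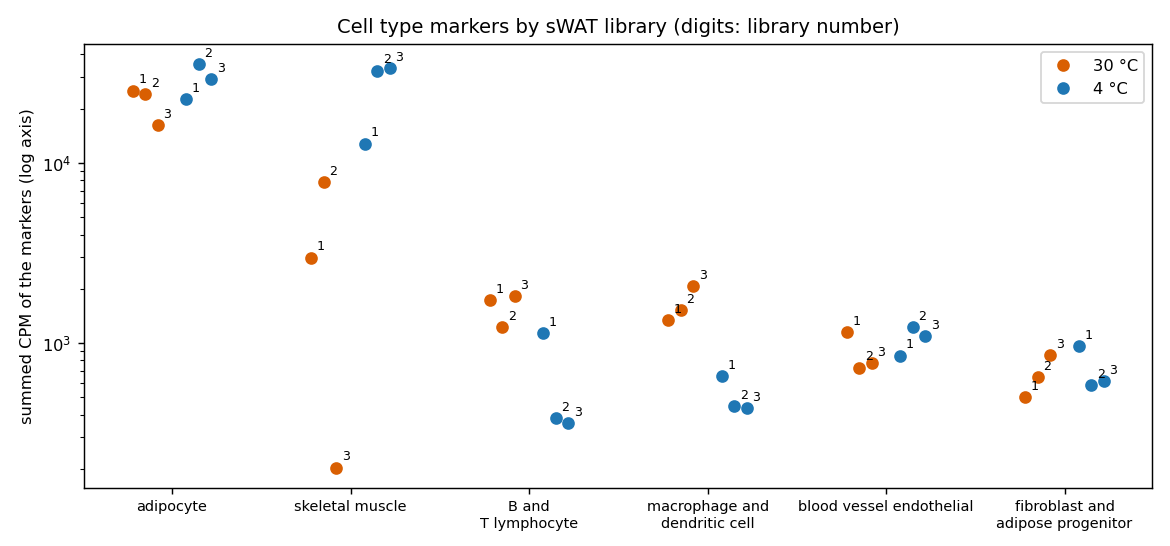
Summed CPM (log y axis) of 6 lists of cell type markers in each sWAT library, orange for 30 °C and blue for 4 °C, with the library number beside each point. Skeletal muscle points at 4 °C lie above all those at 30 °C, lymphocyte and macrophage points lie below, and adipocyte, endothelial and fibroblast points overlap.

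Thermogenic genes rose in cold. Of 27 effectors and regulators tested, 22 rose and none fell, and the median log2 fold change was 3.36. Ucp1, the proton carrier that uncouples respiration, stood at 4054, 15837 and 14318 CPM in the cold libraries, in order of their numbers, and at 471, 128 and 51.3 CPM in the thermoneutral ones. The groups did not overlap, and cold library 1 was the lowest of the cold libraries. Cold lay above without overlap for 21 of the 27 members and for 30.0% of all genes tested, and below without overlap for none of the members and 30.6% of all genes. The log2 fold change of Ucp1 was 5.72 ± 0.98 (adjusted p = 0.00203). Dio2, the deiodinase that makes active thyroid hormone inside the cell, was at 124, 277 and 236 CPM in cold and 1.42, 0.852 and 0.613 at 30 °C, a log2 fold change of 7.79 ± 0.52 (adjusted p = 0.000174), or 6.84 ± 0.62 with the GC correction. Ppargc1a, which encodes PGC-1α, the coactivator of mitochondrial biogenesis, was at 82.9, 257 and 160.2 CPM against 3.05, 2.73 and 2.17, a log2 fold change of 5.98 ± 0.48 (adjusted p = 0.000198), or 4.80 ± 0.58 corrected. All 3 genes were lower in cold library 1 than in the other cold libraries.

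The promoters of these 3 genes are shown. They were picked among the fixed genes whose window held a match to the element below, so their matches are not a result. All 3 are classical targets of the cyclic AMP pathway and rose together. Each window runs from 250 bases before to 50 bases after the RefSeq start on the gene's own strand, from the GRCm38.p6 table, and capitals mark the cyclic AMP response element TGACGTCA or its short forms TGACG and CGTCA, searched on both strands, with short forms counted inside full elements too. Ucp1 spans chr8:83290352-83298452, Dio2 chr12:90724552-90738438 and Ppargc1a chr5:51454250-51567726 in GENCODE M21 (GRCm38, the mm10 build), and the RefSeq start of Dio2 lies upstream of that model. The windows lie at chr12:90738989-90739288 (minus strand) for Dio2, chr5:51567676-51567975 (minus strand) for Ppargc1a and chr8:83290098-83290397 (plus strand) for Ucp1.
Dio2: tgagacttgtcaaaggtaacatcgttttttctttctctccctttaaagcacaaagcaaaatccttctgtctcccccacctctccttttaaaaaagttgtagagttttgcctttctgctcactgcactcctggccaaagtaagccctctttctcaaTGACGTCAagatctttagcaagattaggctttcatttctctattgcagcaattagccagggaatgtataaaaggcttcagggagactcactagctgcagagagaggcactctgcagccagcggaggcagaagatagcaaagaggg
Ppargc1a: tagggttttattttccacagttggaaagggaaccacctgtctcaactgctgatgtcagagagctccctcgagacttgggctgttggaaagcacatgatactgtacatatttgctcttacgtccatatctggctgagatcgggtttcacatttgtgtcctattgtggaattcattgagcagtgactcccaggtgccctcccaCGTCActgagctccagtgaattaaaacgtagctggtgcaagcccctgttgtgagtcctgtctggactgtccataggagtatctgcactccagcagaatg
Ucp1: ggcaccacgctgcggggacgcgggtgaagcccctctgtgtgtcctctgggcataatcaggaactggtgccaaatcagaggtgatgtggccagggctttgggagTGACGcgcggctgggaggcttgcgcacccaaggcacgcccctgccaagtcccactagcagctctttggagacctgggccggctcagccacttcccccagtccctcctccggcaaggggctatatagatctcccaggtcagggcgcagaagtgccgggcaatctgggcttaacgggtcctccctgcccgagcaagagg
Dio2 held the full palindrome, starting 95 bases before the start site, and Ppargc1a and Ucp1 held 1 short form each, at 49 and 147 bases before it. Of all 32851 promoters in the table, 1.79% held the full element and 20.8% a short form. By gene, a short form was found in 34.3% of 2939 genes that rose, 30.7% of 2753 that fell and 33.1% of 11496 tested. Among the 29 genes named as fixed or as largest changes, 21 had a window in the table, 12 of those held a short form and Dio2 alone held the full element. Among the fixed genes not shown, Fgf21, which rose, and Cirbp, which fell, also held a short form in a window. A match is a description of these letters.

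Genes that act beside Ucp1 rose as well. Cidea, a lipid droplet protein typical of brown and beige adipocytes, was at 1265, 3192 and 2859 CPM in cold and 445, 263 and 149 at 30 °C (log2 fold change 3.09 ± 0.55, adjusted p = 0.0023). Elovl3, an elongase of very long fatty acids, was at 140.1, 729 and 683 CPM against 1.57, 2.03 and 0.802 (8.47 ± 0.81, adjusted p = 0.000264). Esrrg, an orphan nuclear receptor of mitochondrial genes, rose by 4.50 ± 0.33 (corrected 3.44 ± 0.38) and Fabp3, a fatty acid binding protein of oxidative tissues, by 7.21 ± 0.90. The lineage regulators Prdm16 and Ebf2 rose by 1.41 ± 0.32 and 1.99 ± 0.27 on the log2 scale, and Ebf2 by 1.31 ± 0.22 with the GC correction. Gpr3, a receptor that signals without a ligand, was low in all libraries, at 0.492, 1.29 and 0.58 CPM in cold and 0.029, 0.0881 and 0.0236 at 30 °C. The 5 members that did not pass were Cebpb (-0.96 ± 0.88), Irf4 (-0.40 ± 0.27), Esrra (-0.16 ± 0.48), Zfp516 (-0.13 ± 0.22) and Cox8b (0.48 ± 0.65). With the GC correction Zfp516 was at 0.29, Cox8b at 1.12 and Cebpb at 0.22, none of them called, and Irf4 passed as lower (-0.70, adjusted p = 0.0408). Cebpb passed as lower without cold library 2 (-2.66), which held 263 CPM against 9.95 and 57.9 in the other cold libraries.

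The skeletal muscle markers moved with temperature alongside the thermogenic genes. A fit with their level as a covariate was chosen after seeing the data and leaves 3 residual degrees of freedom. In it 8 of the 27 thermogenic members were called higher and 1, Cox8b, lower. The log2 fold change was then 2.48 for Ucp1 (adjusted p = 0.102) and 1.29 for Cidea (adjusted p = 0.195), neither called, and Prdm16 was not called. Dio2, Ppargc1a and Elovl3 were called higher in that fit and in all 21 alternatives run, with adjusted p-values of at most 0.00393, 0.0058 and 0.00653. Temperature and muscle marker level move together in these 6 libraries, so this fit cannot divide the change between them.

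**Figure D3:**
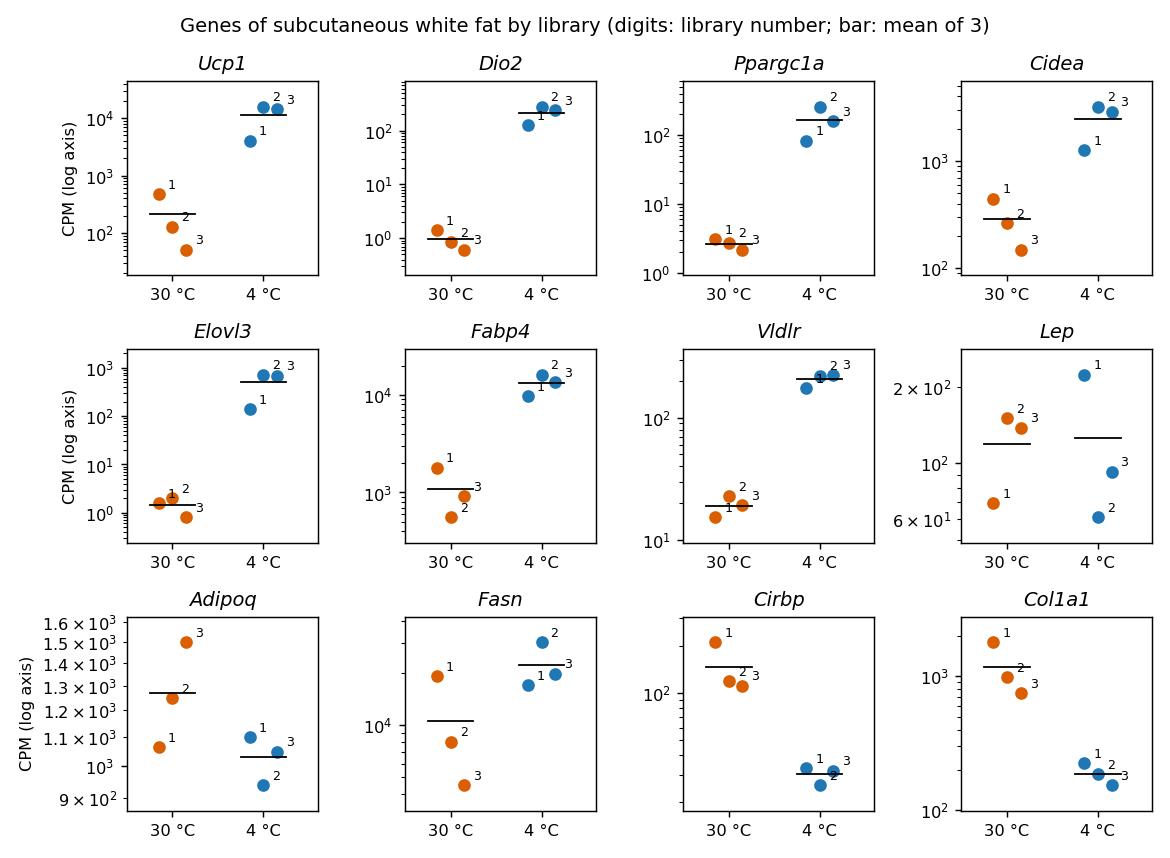
CPM (log y axis) of 12 genes in each sWAT library at 30 °C (orange) and 4 °C (blue), with library numbers and a bar for the mean of 3. Ucp1, Dio2, Ppargc1a, Cidea, Elovl3, Fabp4 and Vldlr are higher and Cirbp and Col1a1 lower in every cold library, and Lep, Adipoq and Fasn overlap.

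Surface and lineage markers proposed for beige fat did not move as a group. Of 16 tested, 3 rose, 5 fell and 8 did not pass, with a median log2 fold change of -0.15. Tbx15, a transcription factor of subcutaneous fat, rose by 2.37 ± 0.30, and the amino acid carrier Slc36a2 and the ATP receptor P2rx5, both surface markers of brown fat, rose by 1.44 ± 0.32 and 1.18 ± 0.29. The cold values of P2rx5 were 46.4, 49.7 and 56.9 CPM and those at 30 °C were 26.6, 26.6 and 14.2. The immune receptor genes Cd40 and Tnfrsf9, both used as beige markers, fell by 2.09 ± 0.36 and 1.39 ± 0.49, and the interferon-responsive Epsti1 fell by 2.02 ± 0.34. The patterning gene Hoxc9 fell by 1.95 ± 0.35 and Tbx1 by 1.29 ± 0.46. Leaving out cold library 2 or 3 or thermoneutral library 1 left 3 members called lower. Tbx1 was at 0.28 with the GC correction and was not called then, nor without any one of cold libraries 2 and 3 and thermoneutral libraries 1 and 2. Tnfrsf9 was not called without cold library 2 or 3 or thermoneutral library 1 or 3. With the muscle covariate Slc36a2 and P2rx5 were not called, and of the members that fell only Hoxc9 kept its call.

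Adrenergic and cyclic AMP genes moved in both directions, with some members lower and several cyclases, phosphodiesterases and transcription factors higher. Of 30 tested, 15 rose and 4 fell, and the median log2 fold change was 0.95. Adcy10, the soluble adenylyl cyclase, was at 16.0, 30.3 and 21.9 CPM in cold and 1.33, 1.85 and 1.63 at 30 °C (3.82 ± 0.34, adjusted p = 0.000257). The phosphodiesterases Pde7b and Pde4a, which degrade cyclic AMP, rose by 2.97 ± 0.35 and 2.20 ± 0.27, and Pde7b by 1.87 ± 0.43 with the GC correction. Atf2, a substrate of p38 kinase that acts on Ucp1 and Ppargc1a, was at 70.9, 54.3 and 55.7 CPM against 10.2, 10.7 and 14.7. Its log2 fold change of 2.35 ± 0.26 was 0.93 ± 0.21 with the GC correction and still passed. Among the 4 that fell were the receptors Adrb3 and Adra2a and the cyclase Adcy5. Adrb3, the main β-receptor of mouse adipocytes, was at 158, 262 and 257 CPM in cold and 457, 482 and 414 at 30 °C (-1.0 ± 0.31, adjusted p = 0.0246). With the GC correction Adrb3 was at -0.46 ± 0.26 (adjusted p = 0.184), with a replicate block its adjusted p was 0.059, and its call was lost without cold library 3 or either of thermoneutral libraries 1 and 2. Adcy5 (-1.66 ± 0.32) and Adra2a (-1.53 ± 0.42) also lost their calls with the GC correction, at -0.57 and -0.55. Adra2a was also not called without cold library 2 or 3, and without cold library 3 the list had 2 members called lower.

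Genes of fatty acid capture rose in 52.9%, and those of lipolysis and the lipid droplet in 36.4%, against 25.1% of all genes tested. Of 17 lipid uptake genes, 9 rose and 1 fell (median 1.14). Cd36, the fatty acid translocase, was at 1904, 1284 and 1646 CPM in cold and 86.9, 91.2 and 157 at 30 °C (3.85 ± 0.41, with the GC correction 2.05 ± 0.32). Vldlr, the receptor of triglyceride-rich lipoproteins, was at 174, 222 and 226 CPM against 15.2, 22.8 and 19.1 (3.44 ± 0.28, adjusted p = 0.000198, with the GC correction 2.61 ± 0.27). Lpl, the lipase that frees fatty acids from those lipoproteins, rose by 2.30 ± 0.36 (1.35 ± 0.35 with the GC correction), and Angptl4, its inhibitor, was the one that fell, by 1.19 ± 0.40. Thermoneutral library 1 held 409 CPM of Angptl4 against 160.0 and 169 in the other thermoneutral libraries. The call of Angptl4 was lost without thermoneutral library 1 (-0.60) and without each cold library (-1.04, -1.25 and -1.27 in order), with a replicate block its adjusted p was 0.11, and the block, or leaving out cold library 2 or 3 or thermoneutral library 1, left none of the list lower.

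Of 22 lipolysis and lipid droplet genes, 8 rose, 1 fell and 13 did not pass (median 0.75), where 49.2% of all genes were called either way. With the GC correction 10 of the 22 rose and 1 fell, and 10 of the 17 uptake genes rose. Fabp4, the adipocyte fatty acid binding protein, was at 9706, 16189 and 13479 CPM in cold and 1798, 555 and 919 at 30 °C (3.59 ± 0.55, adjusted p = 0.00128, with the GC correction 2.46 ± 0.62). Cideb, a lipid droplet protein of the Cidea family, rose by 3.65 ± 0.45, and Plin2, which coats small droplets, was at 812, 1557 and 1280 CPM against 412, 255 and 272 (1.96 ± 0.38). The one that fell was Hilpda, an inhibitor of adipose triglyceride lipase, by 1.36 ± 0.34. With the muscle covariate 2 of the lipolysis genes were called higher and 1 lower, and Fabp4, Plin2 and Hilpda were not called.

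Fat synthesis genes rose together with those of fat burning. Of 21 de novo lipogenesis genes, 11 rose and none fell (median 1.42). Elovl6, which lengthens palmitate, was at 702, 1256 and 1209 CPM in cold and 71.3, 59.1 and 64.4 at 30 °C (4.02 ± 0.37). G6pdx, the enzyme that supplies NADPH, was at 353, 332 and 315 CPM against 82.9, 39.7 and 70.1 (2.37 ± 0.33), and the carbohydrate-responsive factor Mlxipl (ChREBP) rose by 1.86 ± 0.32. Elovl5, an elongase of polyunsaturated fatty acids, rose by 1.67 ± 0.22, or 0.97 ± 0.21 with the GC correction. Fasn, the fatty acid synthase, did not pass. It was at 17131, 30188 and 19852 CPM in cold and 19235, 8066 and 4512 at 30 °C (1.08 ± 0.58, adjusted p = 0.151). Thermoneutral library 1 overlapped with the cold libraries, and Fasn passed as higher without that library (1.84) and with the GC correction (1.94 ± 0.50, adjusted p = 0.0157). In the fit with the muscle covariate 3 members of this list were called higher, and Fasn was at -0.56, not called.

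Of 19 genes of triglyceride synthesis and glycerol handling, 10 rose, 1 fell and 8 did not pass (median 1.13), and with the GC correction 2 fell. Gk, glycerol kinase, which lets adipocytes reuse the glycerol of lipolysis, was at 172, 222 and 294 CPM in cold and 7.08, 4.02 and 2.55 at 30 °C (5.66 ± 0.47, adjusted p = 0.000202, with the GC correction 4.12 ± 0.58). Gpd2, the mitochondrial glycerol-3-phosphate dehydrogenase, was at 630.3, 852 and 862 CPM against 66.8, 46.4 and 38.4 (3.95 ± 0.36). Gpam and Lpin1, which add the first acyl chain and remove phosphate on the way to triglyceride, rose by 2.10 ± 0.37 and 1.92 ± 0.35. The glycerol channel Aqp3 fell by 2.17 ± 0.48, from 3.23 to 4.99 CPM at 30 °C to 0.464 to 1.40 in cold. Without cold library 1 or thermoneutral library 3, 2 members fell. The muscle covariate left 2 members called higher and 1 lower, and Gk and Gpd2 kept their calls in all alternatives run.

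Most genes of mitochondrial fuel oxidation rose. In fatty acid oxidation 22 of 30 rose and 1 fell (median 1.83), and in the citric acid cycle and its entry 22 of 28 rose and none fell (median 2.20). Decr1, which handles unsaturated fatty acids, was at 486, 497 and 701 CPM in cold and 52.8, 41.5 and 53.1 at 30 °C (3.51 ± 0.32). Hadhb, of the trifunctional protein, was at 1085, 2036 and 2615 CPM against 219, 191 and 216. Its log2 fold change was 3.20 ± 0.42, or 1.54 ± 0.47 with the GC correction. Etfdh, which passes electrons to ubiquinone, rose by 3.23 ± 0.37, and the acyl-CoA synthetase Acsl3 by 3.54 ± 0.41. The peroxisomal thiolase Acaa1a was the one that fell, by 1.40 ± 0.34 (-0.84 ± 0.26 with the GC correction). Dld, a subunit that pyruvate and oxoglutarate dehydrogenase share, was at 648, 656 and 931 CPM against 25.7, 21.6 and 37.7 (4.72 ± 0.38). Sucla2, of succinyl-CoA synthetase, rose by 4.34 ± 0.46 and Pdhx, of pyruvate dehydrogenase, by 2.51 ± 0.31. Idh1, the cytosolic isocitrate dehydrogenase, rose by 2.99 ± 0.36. With the muscle covariate 6 fatty acid oxidation genes were called higher and 2 lower, and 6 citric acid cycle genes higher and none lower, with medians of 1.07 and 1.19.

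Most glucose use genes also rose. Of 29 tested, 18 rose, 3 fell and 8 did not pass (median 1.52). Ldhb, the lactate dehydrogenase subunit of oxidative tissues, was at 667, 1391 and 1285 CPM in cold and 137, 99.4 and 84.1 at 30 °C (3.38 ± 0.41). Slc16a1, the lactate carrier MCT1, rose by 2.68 ± 0.38 (1.70 ± 0.44 with the GC correction) and the insulin-responsive transporter Slc2a4 by 1.51 ± 0.39. Slc2a4 was at 384, 723 and 746 CPM against 296, 202 and 152 and was not called without thermoneutral library 2. The 3 that fell were the transporters Slc2a1 (-1.08 ± 0.26) and Slc2a3 (-0.99 ± 0.36) and the neuronal enolase Eno2 (-2.39 ± 0.37). Slc2a1 did not pass with the GC correction (-0.63, adjusted p = 0.0651), and Slc2a3 was not called with a replicate block (adjusted p = 0.0708) or without cold library 2 or 3 or thermoneutral library 1 or 3. The number that rose was 12 without thermoneutral library 2, and with the muscle covariate 2 were called higher and none lower.

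All 13 protein-coding genes of mitochondrial DNA rose, with a median log2 fold change of 7.80 (5.53 with the GC correction). These are the genes whose share of counts described library make-up above, so their rise restates that difference. It cannot be told apart from an effect of temperature. mt-Cytb, the cytochrome b gene, was at 40039, 27779 and 27503 CPM in cold and 150.1, 241 and 153 at 30 °C, and mt-Nd6 at 970.0, 507 and 614 against 2.67, 4.02 and 1.53. All 13 responses were more positive than those in BAT, where the median log2 fold change was 0.98. Nuclear genes of the same respiratory chain moved far less. Of 75 tested, 25 rose (33.3%) and 1 fell, with a median of 0.69, and 4 fell with the GC correction. Uqcrc2 and Ndufs1, core subunits of complexes III and I, were at 722, 958 and 1058 CPM against 82.1, 65.3 and 99.9 and at 294, 437 and 535 against 49.2, 55.1 and 51.7. Uqcrb rose by 7.29 ± 0.41 (corrected 5.81 ± 0.41) and Cycs, cytochrome c, by 5.09 ± 0.75, but both have near-identical copies in the genome, so their counts are uncertain. The one that fell was Atp5g3, a subunit c gene of ATP synthase (-1.40 ± 0.44), whose call was lost without cold library 3 or either of thermoneutral libraries 1 and 2. The number of nuclear members that rose was 39 without cold library 1, 14 without thermoneutral library 2 and 16 without thermoneutral library 3, and it was 15 with a replicate block. The number that fell was 3 without cold library 1 or 2, and none fell without cold library 3 or thermoneutral library 1 or 2. With the muscle covariate 4 rose and 5 fell, whereas all 13 mitochondrial DNA genes stayed called, at a median of 7.55.

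The machinery of mitochondria showed a mixed picture. Mitochondrial ribosomal protein genes rose in 23 of 77 (29.9%) and fell in 4, with a median log2 fold change of 0.37. Leaving out cold library 1 gave 35 rises and cold library 3 gave 15, and 2 fell without thermoneutral library 1 or 2. With the GC correction 21 rose and 7 fell, and 2 of the falls were called in both fits. Mrpl1 was at 28.6, 21.3 and 30.5 CPM in cold against 1.22, 0.822 and 1.65, and Mrps2 at 117, 159 and 129 against 29.2, 21.8 and 20.1. In biogenesis and dynamics 15 of 29 rose and 3 fell (median 0.87), and with the GC correction 14 rose and 5 fell. The mitochondrial chaperones Hspa9 and Hspd1 rose by 3.47 ± 0.33 and 3.15 ± 0.34. Dnm1l, the fission GTPase, rose by 2.52 ± 0.26, or 1.17 ± 0.19 with the GC correction, and Immt, of the cristae junction, by 3.05 ± 0.32, or 1.47 ± 0.41. The 3 that fell were the mitochondrial DNA polymerase subunits Polg (-1.14 ± 0.24) and Polg2 (-1.09 ± 0.29) and the transcription factor Nrf1 (-0.83 ± 0.22). Nrf1 and Polg2 were not called without cold library 3, so that without this library 1 member fell, and their values were -1.44 and -1.50 with the GC correction.

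Genes of the UCP1-independent cycles of creatine and calcium rose in 9 of 17 and fell in 2 (median 1.74). Alpl, a phosphatase of the creatine cycle, was at 12.3, 73.9 and 61.5 CPM in cold and 6.15, 2.82 and 2.52 at 30 °C (3.68 ± 0.67). The calcium pump Atp2a2 was at 219, 425 and 388 CPM against 109, 96.7 and 92.7 (1.79 ± 0.32), and the calcium release channel Itpr1 rose by 1.89 ± 0.32. Sln, the regulator of muscle calcium pumps, was at 0.96, 1.61 and 1.70 CPM in cold and 0, 0.0587 and 0 at 30 °C. The 2 that fell were Gamt, which makes creatine (-1.44 ± 0.28), and the pump Atp2a3 (-1.77 ± 0.43), which is also abundant in blood cells, and neither passed with the GC correction (-0.41 and -0.91). Many of these genes are also muscle genes, and with the muscle covariate none was called higher and 1 was called lower.

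Secreted factors of thermogenic fat rose in 7 of 18 and fell in 4 (median 0.75). Kng2, a kininogen, was at 24.8, 108 and 129 CPM in cold and 0.522, 0.47 and 0.165 at 30 °C (7.83 ± 0.77, adjusted p = 0.000297). S100b, which promotes sympathetic innervation of thermogenic fat, was at 30.1, 47.6 and 61.5 CPM against 4.67, 1.82 and 1.91 (4.05 ± 0.47). Bmp8b was at 1.57, 19.0 and 14 CPM against 0, 0.117 and 0, and Fgf21 at 1.17, 1.68 and 4.44 against 0.232, 0.235 and 0. Both are known as cold-induced factors of brown fat, both passed the test (adjusted p = 0.00133 and 0.00738), and both were not called with the muscle covariate. Npr3, the clearance receptor of natriuretic peptides, rose by 2.49 ± 0.36. The 4 that fell were Angptl4, Metrnl (-1.03 ± 0.38), Pltp (-1.30 ± 0.29) and Wnt10b, an inhibitor of fat cell formation (-1.86 ± 0.42). Metrnl (-0.30) and Pltp (-0.54) did not pass with the GC correction. Metrnl was also not called with another scaling of the libraries (RLE, adjusted p = 0.0588) or without any single library except cold library 2. Leaving out cold library 1 or 3 or thermoneutral library 1 gave 2 falls.

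White adipocyte genes and adipokines gave 3 that rose, 6 that fell and 13 of 22 that did not pass (median -0.18). Lep, leptin, was at 223, 61.1 and 92.4 CPM in cold and 69.3, 150.4 and 138 at 30 °C (0.07 ± 0.49, adjusted p = 0.910). The groups overlapped, and its sign turned without cold library 1 (-0.62) or thermoneutral library 1 (-0.21). Adipoq, adiponectin, was at 1099, 938 and 1047 CPM against 1062, 1248 and 1499 (-0.30 ± 0.32, adjusted p = 0.447, with the GC correction -0.60 ± 0.28 and not called). Pparg, the master regulator of fat cells, was among the 3 that rose, at 201, 238 and 249 CPM against 39.8, 40.9 and 55.7 (2.33 ± 0.27), with Fabp4 and Trp53inp2, a regulator of autophagy and nuclear receptors (2.42 ± 0.40). Nnat, neuronatin, fell from 419, 553 and 519 CPM to 141, 85.4 and 109.5 (-2.15 ± 0.31, with the GC correction -1.21 ± 0.39). Cfd (adipsin) and Cebpa were lower by 1.15 ± 0.42 and 1.38 ± 0.47. Neither passed with the GC correction, without cold library 3 or without thermoneutral library 1 or 2, and Cfd also not without cold library 1 or 2, with a replicate block (adjusted p = 0.117) or with RLE scaling (adjusted p = 0.0618). That correction left 3 members lower. The glycerol channel Aqp7, an adipocyte marker, rose by 1.13 ± 0.29 and was not called without thermoneutral library 2.

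Stress chaperones of the cytosol rose in 12 of 20 and fell in 1 (median 1.40). Hspb6, a small heat shock protein abundant in muscle, was at 142, 205 and 210.3 CPM in cold and 18.5, 20.9 and 4.77 at 30 °C (3.66 ± 0.53). Hspa4l rose by 3.22 ± 0.39, or 1.72 ± 0.44 with the GC correction, and Hsp90aa1, the stress-inducible HSP90, by 2.72 ± 0.46. Dnajb4, a cochaperone, rose by 2.80 ± 0.42, or 1.65 ± 0.30 with the correction. Hsf1, the factor that switches on this response, was the one that fell (-0.88 ± 0.22), and it was not called with the GC correction or without cold library 3. The muscle covariate left 4 chaperones higher. Among 26 genes of the unfolded protein response 8 rose and 3 fell (median 0.28). Canx rose by 2.80 ± 0.29 (1.66 ± 0.28 with the GC correction) and the stress sensor Atf6 by 2.12 ± 0.29, and Sdf2l1 and Creld2, both induced by endoplasmic reticulum stress, fell by 2.49 ± 0.39 and 1.77 ± 0.32. The third that fell was Xbp1 (-1.10 ± 0.39), not called with the GC correction, with a replicate block (adjusted p = 0.0917) or without cold library 2 or 3 or thermoneutral library 2 or 3. The number that rose was 3 without cold library 3 or thermoneutral library 3, 4 without thermoneutral library 1 and 5 without thermoneutral library 2, and it was 4 with a replicate block.

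Most clock genes did not pass. Of 20 tested, 5 rose (25%, against 25.1% of all genes) and 1 fell. Clock was at 52.4, 62.9 and 55.1 CPM in cold and 5.63, 9.87 and 9.37 at 30 °C (2.78 ± 0.29), and Rora, an activator of the clock loop, at 48.4, 35.6 and 38.7 against 4.84, 9.60 and 8.75 (2.40 ± 0.32). With the GC correction these were 1.5 ± 0.25 and 1.09 ± 0.21 and passed. Bhlhe40 and Hlf rose by 2.30 ± 0.36 and 1.45 ± 0.24, Hlf by 0.78 ± 0.23 with the correction, and Nr1d2 (1.56 ± 0.36) and Dbp (-1.53 ± 0.31) did not pass with the GC correction. Immediate early genes were 1 higher and 5 lower of 17. Nr4a2 was the one that rose (2.79 ± 0.33), and Junb (-2.76 ± 0.53), Jund (-2.25 ± 0.61), Egr3 (-1.63 ± 0.47), Ier2 (-1.39 ± 0.28) and Btg2 (-1.85 ± 0.31) fell. With the GC correction 4 were higher and 3 lower, Junb was at -1.66 ± 0.36, and Ier2 (-0.35 ± 0.20) and Jund (-0.85 ± 0.32) did not pass. Jund was also not called without thermoneutral library 1, Egr3 without cold library 2 or 3 or thermoneutral library 2, and 3 members were higher without cold library 1.

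The study asked about splicing factors in thermogenesis, and among splicing regulators the balance of rises and falls turned with the GC correction. As counted, 27 of 84 rose (32.1%) and 15 fell, with a median log2 fold change of 0.20. With the correction 12 rose and 25 fell, with a median of -0.31. Mbnl2, a muscleblind splicing factor, was at 148, 141 and 154 CPM in cold and 27.5, 17.9 and 22.9 at 30 °C, and its log2 fold change was 2.69 ± 0.26 as counted and 2.61 ± 0.24 corrected. Khdrbs3 was at 25.7, 64.3 and 58.8 CPM against 3.57, 2.88 and 2.45 (4.06 ± 0.40, corrected 2.81 ± 0.50). Rbfox1, a factor of muscle and neurons, was at 19.8, 24.8 and 31.3 CPM against 0.551, 0.969 and 0.165 (5.50 ± 0.58, corrected 4.82 ± 0.58). Ptbp2 was at 24.9, 16.1 and 21.6 CPM against 3.19, 3.50 and 3.99. Its rise of 2.55 ± 0.28 (adjusted p = 0.000403) was -0.044 ± 0.26 with the correction (adjusted p = 0.902), and its transcript GC content is 34.2%. Leaving out cold library 2 gave 9 falls, cold library 3 gave 4 and thermoneutral library 2 gave 8.

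Among the genes named for induction by cold, Cirbp fell and Rbm3 did not pass. Cirbp, whose protein is induced in cooled cells, was at 33.1, 25.8 and 31.9 CPM in cold and 210.5, 119 and 111 at 30 °C. All cold values lay below all thermoneutral ones, and the log2 fold change was -2.28 ± 0.31 (adjusted p = 0.000835). Rbm3, its close relative, was at 281, 92.3 and 135 CPM against 222, 132 and 193 (-0.10 ± 0.42, adjusted p = 0.854). With the GC correction Rbm3 was at -1.49 ± 0.42 and passed as lower (adjusted p = 0.0212), and its sign turned without cold library 2 or 3 or thermoneutral library 1. Of the 7 genes in this list, 1 rose and 2 fell, and Rbm14 was the other that fell (-0.83 ± 0.22). Rbm14 was not called with the GC correction or without cold library 3, so that 1 member fell then. Without cold library 1, 2 members rose.

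Genes of the fibrillar collagens I, III and V were lower in cold. Of 37 extracellular matrix genes, 12 fell and 3 rose (median -0.46). With the GC correction 8 of the 37 fell and 1 rose (median -0.20), against 21.8% lower among all genes in that fit. In both fits 6 fell. Col1a1 was at 224, 185 and 154 CPM in cold and 1789, 983 and 746 at 30 °C (-2.64 ± 0.42, corrected -1.63 ± 0.41), and Col1a2, its partner in type I collagen, at 277, 203 and 217 against 1638, 1055 and 913 (-2.37 ± 0.36). Col3a1 fell by 2.10 ± 0.40 and Col5a1 by 1.80 ± 0.32. Col5a1 was not called with the GC correction (-0.88 ± 0.34, adjusted p = 0.0649). The 3 that rose were Postn, Timp3 and Adamts1. Adamts1, a protease of proteoglycans, rose by 1.5 ± 0.34, whereas Timp3 (0.76 ± 0.25) did not pass with the correction or with a replicate block (adjusted p = 0.0834) and Postn turned from 1.13 ± 0.34 to -1.01 ± 0.31. Without cold library 3, 7 fell, and without cold library 3 or thermoneutral library 1 or 2 only Adamts1 rose.

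Cell cycle genes fell in 14 of 28 and rose in 2 (median -1.03). Cdc20, which starts anaphase, was at 1.24, 2.00 and 1.47 CPM in cold and 13.7, 6.14 and 8.68 at 30 °C (-2.60 ± 0.40), and the S-phase factor E2f1 fell by 1.92 ± 0.32. The 2 that rose were the cyclin Ccne2 (3.24 ± 0.53) and Rrm1 (0.99 ± 0.27). Neither passed with the GC correction, and E2f1 did not pass (adjusted p = 0.067). Leaving out cold library 2 gave 9 falls and cold library 3 gave 8, and Rrm1 was not called without cold library 3 or thermoneutral library 2. The muscle covariate left 3 lower.

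Cytosolic ribosomal protein genes fell in 48 of 84 (57.1%) and rose in 6, with a median log2 fold change of -1.35. Their share of counts was also part of the difference in library make-up, which these falls restate. Rps20 was at 75.7, 231 and 137 CPM in cold and 1966, 2536 and 1783 at 30 °C (-3.82 ± 0.49), Rps9 at 244, 322 and 385 against 2366, 2816 and 1947 (-2.91 ± 0.37), and Rps19 at 88.1, 137 and 152 against 1238, 1102 and 773 (-3.05 ± 0.37). The paralog Rpl22l1 was among those that rose, by 3.29 ± 0.41. Without thermoneutral library 1, 11 rose. Many of these genes have processed pseudogenes that share their reads, and their counts are uncertain to that degree.

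Several immune genes were lower in cold, where the lymphocyte marker sums above were lower too. Lymphocyte markers fell in 10 of 18 and none rose (median -1.48). Lck, the T cell kinase, was at 60.8, 32.4 and 28.9 CPM in cold and 258, 175 and 252 at 30 °C (-2.49 ± 0.36), the homing receptor Ccr7 at 27.5, 16.4 and 12.6 against 125, 67.9 and 133 (-2.53 ± 0.38), and the B cell receptor component Cd79b fell by 2.01 ± 0.35. Without cold library 2 or thermoneutral library 3, 1 rose. The number that fell was 16 without cold library 1, 6 without cold library 2 or thermoneutral library 1 and 5 without cold library 3. Macrophage and dendritic cell markers fell in 8 of 19 and rose in 2 (median -0.56). The complement genes C1qa and C1qc, made by resident macrophages, were at 39.3, 30.9 and 35.5 CPM against 221, 286 and 189.7 and at 26.3, 43.6 and 40.7 against 209, 328 and 226. The fall of C1qa was 2.72 ± 0.28 on the log2 scale, and its value was -1.68 ± 0.31 with the GC correction. The 2 that rose, Mrc1 (1.40 ± 0.42) and Ccr2 (2.13 ± 0.67), did not pass with the GC correction or without thermoneutral library 2, and Ccr2 also not without cold library 1 or with a replicate block (adjusted p = 0.0791).

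Interferon-stimulated genes fell in 7 of 21 and rose in 2 (median -0.40). The immunoproteasome genes Psmb8 and Psmb9 fell by 2.30 ± 0.24 and 2.69 ± 0.25, and Irf7 by 1.73 ± 0.29 (-1.15 ± 0.34 with the GC correction). Psmb8 was at 42.3, 42.5 and 43.2 CPM in cold and 224, 179 and 229 at 30 °C. The 2 that rose were Ifit1 (1.23 ± 0.41) and Ifit2 (1.86 ± 0.52), which did not pass with the GC correction or without thermoneutral library 1 or 2. Ifit1 was also not called with a replicate block (adjusted p = 0.0739) or without cold library 1 or 3, and 12 genes fell without cold library 1. With the muscle covariate 2 lymphocyte markers and 3 macrophage markers were called lower, and Ccr7, Cd79b and Irf7 were not called.

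Among other cell types, skeletal muscle markers rose in 18 of 24 and none fell (median 3.75). Ttn, titin, was at 966, 1411 and 1851 CPM in cold and 36.8, 85.7 and 7.60 at 30 °C, Neb, nebulin, at 403, 623 and 749.8 against 17.4, 28.1 and 3.30, and Mb, myoglobin, at 221, 510.2 and 681 against 22.1, 4.35 and 1.09. Leaving out cold library 1 gave 9 rises, and leaving out cold library 2 or 3 or thermoneutral library 1 gave 11. In BAT the same markers summed to 5384 to 7977 CPM in cold and 4134 to 15240 at 30 °C, and 17 of the 24 responses were more positive in sWAT than in BAT. Among 15 blood vessel markers 5 rose and 3 fell. The VEGF receptors Flt1 and Kdr rose by 1.84 ± 0.24 and 1.51 ± 0.25, with Tek (1.53 ± 0.34), Emcn (2.08 ± 0.41) and Cdh5 (1.05 ± 0.32). Cldn5 (-1.81 ± 0.42), Egfl7 (-1.32 ± 0.32) and Sox17 (-1.23 ± 0.35) fell. Emcn, Cldn5 and Egfl7 did not pass with the GC correction. Cdh5 was not called with a replicate block (adjusted p = 0.0505) or without cold library 2 or 3 or thermoneutral library 2 or 3, and Sox17 not without thermoneutral library 2. The pericyte gene Rgs5 rose by 2.72 ± 0.31, or 1.39 ± 0.37 with the correction.

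Fibroblast and adipose progenitor markers were called higher in none and lower in 5 of 16, although their summed CPM overlapped (585.4 to 960.8 in cold, 502.9 to 854.7 at 30 °C). The median log2 fold change was 0.33, or -0.57 with the GC correction, so the list did not move 1 way. Cold lay above without overlap for 4 of the 16 and below for 5, against 30.0% and 30.6% of all genes tested. The 5 called lower were Icam1, a marker of committed preadipocytes (-2.0 ± 0.26), Pi16, of the interstitial progenitors (-1.08 ± 0.23), Mfap5 (-1.44 ± 0.29), Clec11a (-1.94 ± 0.40) and Bmp7 (-1.29 ± 0.34). Pi16 and Bmp7 did not pass with the GC correction, and Bmp7 not without cold library 3. Without thermoneutral library 2, 1 member rose, and without thermoneutral library 3, 3 rose. Schwann cell and nerve markers, of interest because sympathetic fibres carry the cold signal, gave 2 of 9 that rose and 4 that fell. S100b (above) was among those that rose, and Mbp (-0.82 ± 0.23), Sox10 (-1.08 ± 0.39), Prx (-1.29 ± 0.32) and Ncmap (-1.72 ± 0.36) fell. Corrected for GC content, Sox10 was at 0.20, and neither Sox10 nor Prx was called. Mbp was not called without cold library 2 or 3, and Sox10 not with a replicate block (adjusted p = 0.0809) or without any single library except cold library 1. Without cold library 2 or 3, 2 members fell. Markers at 0 in at least 1 library included Ly6g and Siglecf of granulocytes, Krt5 and Krt14 of epithelium, Th and Dbh of sympathetic neurons and Msln of mesothelium.

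**Figure D4:**
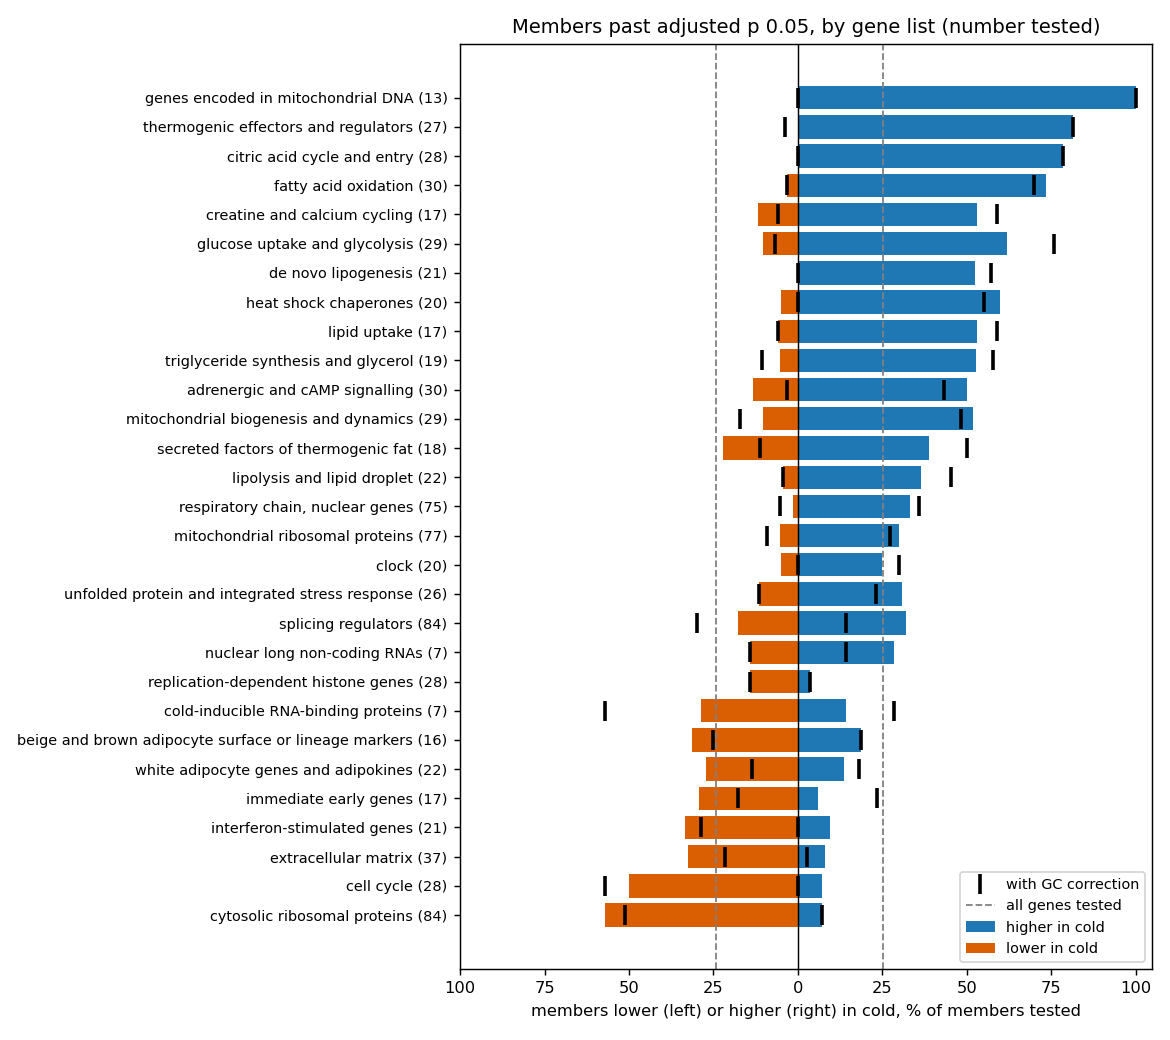
Percent of tested members called higher (right, blue) or lower (left, orange) in cold for 29 gene lists, with the number tested in parentheses. Black ticks give the same percent with the GC correction and dashed lines the percent over all genes tested (25.1 and 24.1). The lists are ordered by median log2 fold change, from mitochondrial DNA genes at the top to cytosolic ribosomal proteins at the bottom.

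Leaving out mitochondrial DNA, ribosomal protein, histone and predicted genes, the largest rises among genes that averaged at least 3 in log2 CPM and did not overlap between groups mixed thermogenic and muscle genes. After Elovl3 they were Mstn, the muscle growth inhibitor myostatin (8.05 ± 0.70), Kng2, Lgr6, an R-spondin receptor (7.81 ± 0.87), Dio2, Dhrs9, a retinol dehydrogenase (7.35 ± 0.63), Uqcrb, Fabp3, Ppp1r3a, a glycogen-targeting subunit of muscle (7.12 ± 0.95), and Trdn, triadin of the muscle calcium release complex (6.65 ± 1.12). Lgr6 was at 27.1, 179 and 154 CPM in cold and 0.725, 0.705 and 0.189 at 30 °C, and Dhrs9 at 20.4, 86.2 and 79.1 against 0.319, 0.382 and 0.425. Mstn was at 27.2, 41.2 and 80.5 CPM against 0.116, 0.382 and 0.0708. Trdn was the only one of the 10 not called with the muscle covariate.

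The largest falls held several genes of lymphoid cells. Igha, the constant region of immunoglobulin A, was at 1.22, 0.214 and 0.657 CPM in cold and 28.1, 72.3 and 109 at 30 °C (-6.59 ± 0.73, adjusted p = 0.000396). Kcna3, the potassium channel of T cells, fell by 4.80 ± 0.47, as did Dusp2, a phosphatase of activated lymphocytes (-4.01 ± 0.28), and Socs1, a brake on cytokine signalling (-4.01 ± 0.74). B3gnt2, a glycosyltransferase, was at 0.351, 1.64 and 0.618 CPM against 17.2, 33.9 and 37.1 (-5.10 ± 0.61). The others were the small GTPase Rab43 (-4.48 ± 0.58), the antisense transcript Epb41l4aos (-4.30 ± 0.48), the phosphatase Ptpn18 (-4.02 ± 0.53), Basp1 (-3.96 ± 0.27) and Cebpd (-3.95 ± 0.89), a transcription factor of early fat cell formation. The strand setting of the counts is not given, so Epb41l4aos cannot be told apart from overlapping transcripts. Cebpd was at 0.936, 12.4 and 11.2 CPM in cold and 44.1, 183 and 151 at 30 °C, and it was not called with the muscle covariate.

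The response of sWAT was compared with that of BAT in a fit over all 12 libraries. Of 16365 genes tested, 2824 (17.3%) responded more positively in sWAT and 1284 (7.85%) more negatively. With the GC correction these were 2005 and 1213, and the gene and list differences from BAT are given without it. These counts depended on single libraries. More positive were 1485 without BAT cold library 1, 1497 without BAT cold library 2 and 1864 without BAT thermoneutral library 2. More negative were 2577 without BAT cold library 3, 1945 without sWAT cold library 1, 691 without sWAT cold library 3 and 830 without sWAT thermoneutral library 2. Of the 27 thermogenic genes, 12 responded more positively in sWAT and none more negatively. Dio2 rose more in sWAT by 5.97 ± 0.65 on the log2 scale (adjusted p = 0.000356), Ppargc1a by 3.61 ± 0.70 (adjusted p = 0.00383) and Cidea by 3.00 ± 0.64 (adjusted p = 0.00585). In BAT itself the log2 fold change was 1.89 ± 0.42 for Dio2, 2.43 ± 0.51 for Ppargc1a and 0.16 ± 0.29 for Cidea. For Ucp1 the difference was 2.24 ± 0.98 (adjusted p = 0.108) and for Elovl3 1.44 ± 0.73 (adjusted p = 0.159), and neither passed. Lep fell in BAT (-2.60 ± 0.32), and its response in sWAT was more positive by 2.71 ± 0.62 (adjusted p = 0.00803). Among extracellular matrix genes 13 of 37 responded more negatively in sWAT, with Col1a1 by 3.11 ± 0.52 (adjusted p = 0.00192).

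**Figure D5:**
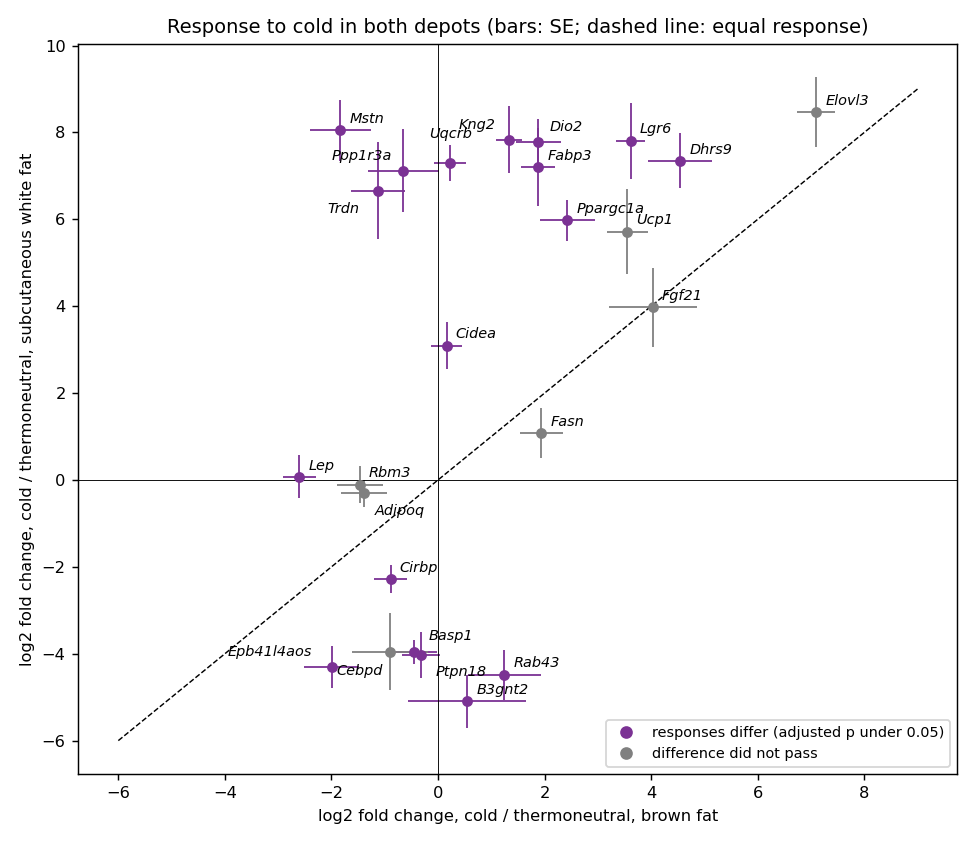
Log2 fold change, cold over thermoneutral, in BAT (x axis) and sWAT (y axis) for 25 genes, with bars of 1 standard error and a dashed line of equal response. Purple marks the 18 genes whose responses differed at adjusted p under 0.05. Ucp1, Elovl3, Fgf21 and Fasn are among the grey ones.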

How the data were processed

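Total RNA libraries (TruSeq, paired 100-nucleotide reads, 1000 ng RNA) of subcutaneous white and brown fat were analysed, 3 of each fat at each temperature. The authors deposited raw read counts per gene, with STAR, DESeq2 and the mm10 build named per the submitters' processing notes. For versions, counting tool, strand setting and annotation: not given in the sources used here. Why the column of cold library 2 is named "Merged" is not stated.

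From the counts, edgeR 4.0.16 (R 4.3.3) was run on the 6 sWAT libraries with filterByExpr, TMM scaling and the robust quasi-likelihood test, with Benjamini-Hochberg adjustment and a threshold of 0.05. The comparison with BAT was the interaction in 1 fit of all 12 libraries. It took the libraries as independent. The labels do not say whether sWAT and BAT libraries of the same temperature and experiment number share animals. CPM were scaled by TMM within each fat, so levels of different genes, whose lengths differ, are not compared. Standard errors are the log2 fold change divided by the root of F. GC content and length came from the longest GENCODE M21 transcript of a symbol, for 96.0% of genes. The GC correction fitted a smoothing spline with 5 degrees of freedom in each library. The fits were also run on simulated counts with a common dispersion and, apart from planted changes, the same mean profile in every library. That simulation cannot show how the fits behave under the GC trend and library make-up seen here.

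Named genes were 11 fixed ones, the 10 largest changes each way and up to 4 members with the smallest adjusted p in each list. Members of counts of 5 or fewer, and Gpr3, Prdm16, Ebf2, Lpl, Cox8b, Slc2a4 and Aqp7, were named after their values were seen. Some members of these lists are counted but not reported here by name. Members and lists were chosen with earlier results of these data known. The titles give an experiment number shared by all 4 groups, which was used as the replicate block; same-numbered cold and thermoneutral libraries did not deviate together (correlations -0.24, 0.20 and -0.32). Alternatives used other scalings, filters, corrections, DESeq2 1.42.0, limma-voom (limma 3.58.1), a replicate block and fits without each library.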

Additional observations from a re-analysis of the deposited data

Results flagged for a closer look

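Of 29 genes considered (those always named and the largest changes), 20 had a log2 response to cold that differed between sWAT and BAT in the interaction test of edgeR over 12 libraries, with adjusted p-values from 1.71e-05 to 0.0474. Groups of 3 libraries were not examined for single outlying values. Each value below is the sWAT response minus the BAT response on the log2 scale, and these values were not recomputed under the alternatives.

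Among thermogenic and adipocyte genes the difference was 5.97 for Dio2, 3.61 for Ppargc1a, 3.00 for Cidea, 5.40 for Fabp3 and 2.71 for Lep. The respiratory chain gene Uqcrb had 7.11, but its counts are uncertain because near-identical copies exist in the genome. It was 6.57 for Kng2, 4.26 for Lgr6 and 2.87 for Dhrs9. Genes of skeletal muscle had 9.92 (Mstn), 7.80 (Ppp1r3a) and 7.82 (Trdn), and the summed muscle markers were higher in every cold than in every thermoneutral sWAT library, which was not the case in BAT. Their part in these differences was not tested.

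More negative in sWAT were Cirbp (-1.33), B3gnt2 (-5.57), Rab43 (-5.65), Epb41l4aos (-2.24), Ptpn18 (-3.64), Dusp2 (-2.66), Socs1 (-3.93) and Basp1 (-3.45). Dusp2 and Socs1 did not pass the filter on low counts in BAT alone and entered this fit through sWAT, so their BAT response rests on few counts. Summed lymphocyte markers were 359.3 to 1813 CPM in sWAT and 3.861 to 12.95 in BAT, each fat on its own scale.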

How the results depend on the processing

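Of 184 named genes that passed, 90 did so with the same sign in every alternative that tested them (20 or 21), 93 lost the call in at least 1 and 5 changed sign. Of 9 that did not pass, 5 passed in at least 1. With a minimum log2 fold change of 1 as the null, 1879 genes were higher and 1483 lower in cold, and the difference from BAT was more positive for 1270 and more negative for 268. With the muscle covariate, chosen after seeing the data, 2307 were higher and 1702 lower. Leaving out 1 sWAT library gave 3068 to 4224 higher and 2604 to 4495 lower. For the difference from BAT, leaving out 1 library gave 1485 to 2921 more positive and 691 to 2577 more negative, the GC and length correction gave 1872 more positive, and DESeq2 gave 2290 more negative. With the shared experiment number as a replicate block 3302 genes were higher and 3207 lower, and with block and GC correction 2761 and 2910, and 1848 differences were more positive. The block alone ended the calls given in the report and of the named genes no other call. Block and GC correction together also ended the calls of Hadhb, Slc16a1, Immt, Lpl, Nnat, Acaa1a, Mbp and Ncmap, which passed with each alone. The GC and length correction ended those of Nnat and Angptl4, which passed with the GC correction.

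Signs that turned were these, on the log2 scale, and the cause was not tested. Lep was at -0.091 with limma-voom, -0.079 with GC correction, -0.061 with GC and length, -0.11 with the block, -0.25 with block and GC, and -0.62 to 0.41 without single libraries. Rbm3 was at 0.67 with the covariate and -0.67 to 0.20 without single libraries, and Esrra at -0.43 to 0.27. With the covariate Adipoq was at 0.13, Fasn at -0.56 and Irf4 at 0.29, none of them called. Cox8b was at -2.37 in that fit and passed as lower (adjusted p = 0.0453). With GC, GC and length, and block with GC, Ptbp2 was at -0.044, -0.052 and -0.018, Postn at -1.01, -1.07 and -0.96, Sox10 at 0.20, 0.24 and 0.14, and Zfp516 at 0.29, 0.099 and 0.28. With GC, and GC and length, Cebpb was at 0.22 and 0.18 and Tbx1 at 0.28 and 0.34, and with GC and length Rrm1 was at -0.031.

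Temperature coincides with library composition and with muscle and lymphocyte markers in these 6 libraries, and 3 libraries a group limit the precision of every value.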
